A study of Mus musculus with 12 samples.

Results

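The genotype by feeding interaction asks, gene by gene, whether the liver answered a sugar-supplemented meal differently in control Med13fl/fl mice and in mice labelled MED13-LKO. For each gene it is the mean of 4 sugar-fed minus the mean of 2 fasted mice labelled MED13-LKO, minus the same quantity in control mice, on log2(normalized count + 1). The 2 sugars, sucrose and fructose, were pooled with equal weight. Genes were included when their normalized count averaged at least 10 over the 12 libraries, a rule that does not use the interaction itself, and 12366 of the 16346 genes listed met it. A positive value means that feeding moved a gene upward more, or downward less, in the mice labelled MED13-LKO.

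All mice were 12-week-old C57BL6J animals on the same chow, and each of 6 groups held 2 mice. Fasted control Med13fl/fl and fasted MED13-LKO mice went 16 h overnight without food. The sucrose groups of each genotype were refed for 4 h with chow and water containing 30% sucrose, and the fructose groups with chow and water containing 30% fructose. Both genotypes carried the floxed Med13 alleles, and MED13-LKO mice carried in addition Alb-Cre, which acts in hepatocytes, so the other cells of the liver keep the gene. Fed mice were killed later in the day than fasted mice, in both genotypes, so a feeding response and a change with the time of day cannot be told apart. No group used here was refed without sugar. No source says that mice of a group came from separate litters, so the p-values measure the spread between these mice.

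The Mediator complex carries signals from transcription factors to RNA polymerase II, and its kinase module, built from MED13, MED12, cyclin C and CDK8 or their close relatives, binds it reversibly through MED13. On refeeding, insulin and sugar turn the liver from making glucose out of amino acids and burning fat toward storing glucose and making fat. FOXO1, glucocorticoid and glucagon signals and PPAR alpha drive many fasting genes, while SREBP1 and ChREBP drive many fed ones. The interaction therefore compares the size of that switch, not the level of a gene in either state.

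Med13 RNA was not reduced under the MED13-LKO label. The fasted mice had normalized counts of 674 and 796 in control and 808 and 899 in MED13-LKO. After sucrose these were 578 and 673 against 646 and 717, and after fructose 607 and 778 against 681 and 1055, so the fasted mice labelled MED13-LKO were above the control mice and the fed mice of the genotypes overlapped. The pooled interaction was 0.00 on the log2 scale (95% interval -0.54 to 0.54). Values per gene do not show whether particular exons were missing, so the label could not be checked from them. Med13l, which encodes the alternative subunit, was 264 to 276 in fasted and 232 to 275 in fed control mice, and went from 342 and 409 fasted to 195 to 244 fed in mice labelled MED13-LKO. Its interaction of -0.62 (95% interval -1.03 to -0.22) was not called (adjusted p = 0.317 from limma). Med12, Cdk8 and Ccnc had interactions of -0.13, 0.15 and 0.44, and none was called.

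Normalized counts summed to 21062211 to 24152885 in control libraries and to 17309215 to 18738563 in those labelled MED13-LKO. Nnt, in which C57BL/6J mice carry a deletion, lay between 529 and 1004 in the 6 control mice and between 2617 and 3687 in the 6 mice labelled MED13-LKO, with no overlap. Of the 31-base subsequences of Nnt, 47.8% occur in other genes too. The part of strain background in the genotype differences was not tested. Of the interaction, Nnt showed -0.61, which was not called (adjusted p = 0.549 from limma).

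Feeding changed 1314 genes in control mice, 697 upward (5.64% of the genes tested) and 617 downward (4.99%). In mice labelled MED13-LKO it changed 1159, with 489 upward (3.95%) and 670 downward (5.42%). Upward calls were thus 42.2% of the latter, and 54.9% with libraries rescaled to equal 75th percentiles, which moved the median feeding response there from 0.00 to 0.04. Only 5 genes, or 0.0404%, were called for the interaction between genotype and feeding by limma with Benjamini-Hochberg adjustment at an adjusted p under 0.05, 4 positive and 1 negative. Without adjustment, 526 genes (4.25%) were higher and 647 (5.23%) lower at p under 0.05, together 9.49% of those tested. With libraries rescaled to equal 75th percentiles that split turned to 645 higher and 530 lower. The median interaction over all genes was 0.00. Tests were two-sided.

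Pooling lowered the median standard error of the interaction from 0.250 for a single sugar to 0.216. It did not raise the number of calls in each case: the interaction with sucrose alone called 18 genes (0.146%) and with fructose alone 3 (0.0243%). The standard error depended on level. Its median was 0.495 for the 3508 genes with a mean from 10 to 100, 0.192 for the 6411 from 100 to 1000, and 0.125 for the 2447 above. The calls numbered 2 in the lowest class, 0 in the middle and 3 in the highest. An uncalled gene may therefore differ by an amount that 2 mice per group did not resolve.

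**Figure D1:**
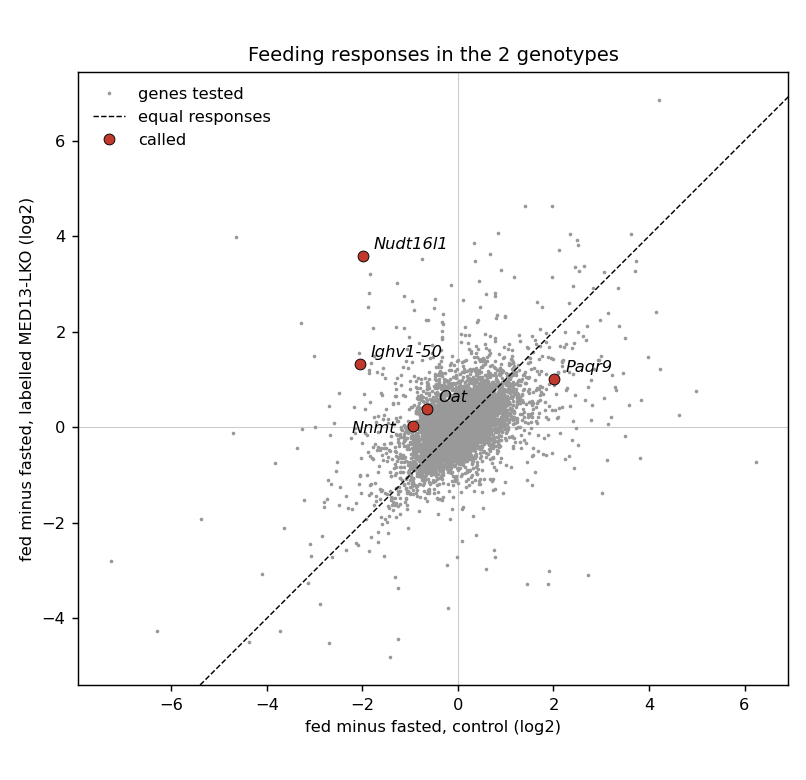
Feeding response (fed minus fasted, sugars pooled, log2) in control mice on the horizontal axis and in mice labelled MED13-LKO on the vertical axis, for the 12366 genes tested; the dashed line marks equal responses. The 5 called genes are drawn in red: Paqr9 lies below the line, and Nnmt, Oat, Ighv1-50 and Nudt16l1 lie above it.

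Paqr9 (ENSMUSG00000064225, chromosome 9 from 95559657 to 95568023 on GRCm38, plus strand) encodes a membrane protein of the progestin and adipoQ receptor family. It was the only gene called in the negative direction. In control mice it was 1298 and 1411 fasted, 5508 and 6260 after sucrose and 5021 and 5213 after fructose. Mice labelled MED13-LKO had 2140 and 2038, 4887 and 4345, and 3759 and 3890. Fed and fasted mice did not overlap in either genotype, and the mice labelled MED13-LKO started higher and ended lower than control mice with either sugar. Paqr9 rose 4.06-fold in control mice and 2.02-fold in mice labelled MED13-LKO, and the interaction was -1.01 (standard error 0.11, adjusted p = 0.0371 from limma). Sucrose gave -0.98 and fructose -1.05. The call was lost without control fasted replicate 1 or without any single mouse labelled MED13-LKO (adjusted p from 0.0716 to 0.118 from limma), while the value stayed between -1.07 and -0.95.

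Of the 9 listed genes of its family, 6 could be tested, and Paqr9 was the single call, beside 0.0404% of all genes. Paqr9 was chosen by name with earlier results of these data known, so its call says nothing about the family. Adipor2, an adiponectin receptor, was 6617 and 7326 in fasted and 13071 to 17090 in fed control mice. The mice labelled MED13-LKO were at 6951 and 7141 fasted and 9600 to 12452 fed, which left the fed mice of the genotypes without overlap. It rose in both genotypes, by 1.15 and 0.66 on the log2 scale, and its interaction of -0.49 was not called (adjusted p = 0.315 from limma). The median over the 6 genes was -0.11.

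Oat (ENSMUSG00000030934, chromosome 7 from 132557478 to 132576398, minus strand) encodes ornithine aminotransferase, a mitochondrial enzyme that links ornithine to proline and glutamate. In fasted control mice it was 27508 and 22253, in sucrose-fed ones 15200 and 15719 and in fructose-fed ones 16967 and 15634. Under the MED13-LKO label the values were 8922 and 8902 fasted, 13796 and 13218 after sucrose and 10579 and 9535 after fructose. The directions were opposite: Oat fell to 0.638 of the fasted level in control mice (adjusted p = 0.0023 from limma) and rose to 1.32 times that level in mice labelled MED13-LKO (adjusted p = 0.027 from limma). The interaction was 1.03 (standard error 0.13, adjusted p = 0.0405 from limma). It was 1.28 with sucrose and 0.78 with fructose, and the sugar difference was not called. In mice labelled MED13-LKO the rise was larger with sucrose than with fructose. Fasted mice of the genotypes differed by -1.47 and fed mice by -0.45, and the mice did not overlap in either state. The call was lost without control fasted replicate 1, either control sucrose mouse or any mouse labelled MED13-LKO (adjusted p from 0.0687 to 0.209 from limma).

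Nnmt (ENSMUSG00000032271, chromosome 9 from 48591877 to 48605153, minus strand) encodes nicotinamide N-methyltransferase, which consumes nicotinamide and S-adenosylmethionine. In control mice it was 3602 and 3196 fasted, 1216 and 1141 after sucrose and 2872 and 2488 after fructose. In mice labelled MED13-LKO all 6 values lay between 2336 and 2593, whatever the diet. Nnmt fell by 0.93 on the log2 scale in control mice and differed by 0.03 in mice labelled MED13-LKO, an interaction of 0.97 (standard error 0.11, adjusted p = 0.0371 from limma). The sugars contributed unequally: the interaction was 1.51 with sucrose and 0.43 with fructose, and their difference of -1.07 was itself called (adjusted p = 0.0151 from limma). The call of the difference was lost without any sucrose-fed mouse or either fructose-fed mouse labelled MED13-LKO (adjusted p from 0.0555 to 0.124 from limma). The pooled call was lost without control fasted replicate 1, either control sucrose mouse or any mouse labelled MED13-LKO (adjusted p from 0.0529 to 0.136 from limma).

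The other two calls rested on low counts and partly shared sequence. Ighv1-50, an immunoglobulin heavy chain variable segment on chromosome 12 from 115119748 to 115120219, has 69.2% of its 31-base subsequences in other genes too, so that its reads cannot be placed with certainty. It was 33.3 and 32.4 in fasted, 1.02 and 0 in sucrose-fed and 45.3 and 47.1 in fructose-fed control mice. In mice labelled MED13-LKO it was 35.3 and 32 fasted, 190 and 196 after sucrose and 36.5 and 38.9 after fructose. The sucrose-fed mice departed most from the rest, downward in control and upward in mice labelled MED13-LKO. The pooled value of 3.37 (adjusted p = 0.0405 from limma) combined 7.06 with sucrose and -0.32 with fructose, and it ran from 1.99 to 4.41 with other pseudocounts.

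Nudt16l1, related to the Nudix hydrolases, lies on chromosome 16 from 4938761 to 4941032 and shares 25.2% of its subsequences. In control mice it was 30.5 and 15.7 fasted, 39.1 and 26.9 with sucrose and 0 in both mice with fructose. Mice labelled MED13-LKO had 0 in both fasted mice, 20.9 and 17.7 after sucrose and 6.9 and 5.37 after fructose. The 2 groups listed at 0 were the fructose-fed control and the fasted MED13-LKO group. The fitted interaction of 5.57 (adjusted p = 0.0492 from limma) depends on the pseudocount and is no bound on a fold, since it was 1.76 with a pseudocount of 10. The Ighv1-50 call was lost without either fasted control mouse, control fructose replicate 1 or any mouse labelled MED13-LKO (adjusted p from 0.0597 to 0.221 from limma). The Nudt16l1 call remained without control fructose replicate 2 alone, and its other adjusted p-values ran from 0.0526 to 0.24 from limma. The whole count of 5 became 17 without control fructose replicate 2, 3 without either control sucrose mouse, 2 without control fasted or MED13-LKO fasted replicate 1, and 0 without MED13-LKO fasted replicate 2 or any fed mouse labelled MED13-LKO.

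**Figure D2:**
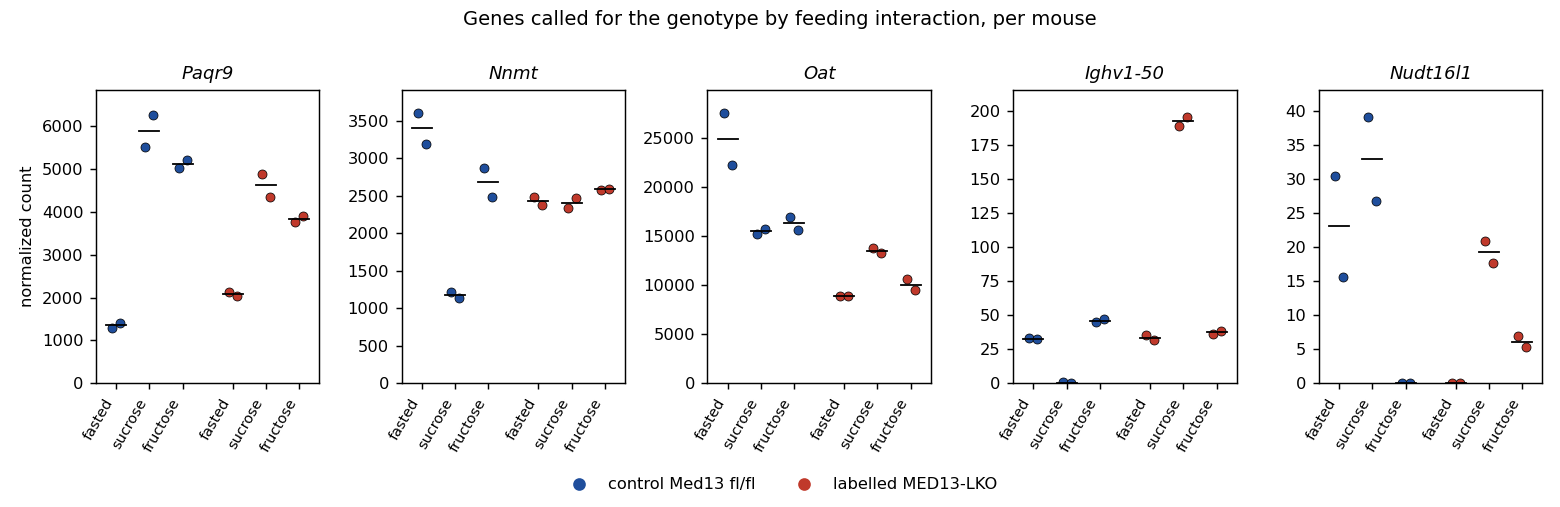
Normalized counts (vertical axis, from 0) of the 5 genes called for the interaction, by diet, in control mice (blue) and mice labelled MED13-LKO (red); points are mice and bars are means of 2. Paqr9 rose 4.06-fold in control and 2.02-fold in mice labelled MED13-LKO, Nnmt stayed between 2336 and 2593 in the latter, and Oat moved in opposite directions.

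Amino acid catabolism and the urea cycle had the highest median interaction of the 24 pathway lists plotted (marker lists of cell types aside). Of its 29 genes, all tested, 24 had an interaction above 0, with a median of 0.35 against 0.00 for all genes. Of the 29, 13 were positive and 1 negative at an unadjusted p under 0.05, beside 4.25% and 5.23% of all genes. Oat was the single call after adjustment, beside 0.0404% of all genes. In control mice 19 of the 29 fell on feeding, beside 4.99% of all genes, and in mice labelled MED13-LKO 6 fell and 2 rose, beside 5.42% and 3.95%. Fasted mice of the genotypes differed in 19 of the 29, lower in each case in mice labelled MED13-LKO, beside 601 genes or 4.86% lower and 509 or 4.12% higher overall. Fed mice differed in 17, again lower, beside 8.86% of all genes lower and 7.82% higher. The median genotype difference was -0.71 fasted and -0.33 fed. Lower levels under that label were not limited to this list: of 28 ribosomal protein genes, 14 were lower fasted and 23 fed, and 0 higher. The list median stayed between 0.18 and 0.44 with any mouse left out. The count of 13 fell to 7 without control fasted replicate 1 and to 8 without MED13-LKO fasted replicate 2. The 19 that fell in control mice became 9 without either fasted control mouse, and the 19 lower in the fasted state became 8 without control fasted replicate 1, 12 without replicate 2 and 9 without MED13-LKO fasted replicate 2. The 6 that fell in mice labelled MED13-LKO became 3 and 4 without fasted replicates 1 and 2. The 17 lower in the fed state became 10 without MED13-LKO sucrose replicate 1, and 11 without MED13-LKO fructose replicate 2 or without the mean trend. With libraries rescaled to equal 75th percentiles the list median was 0.38, and the fed genotype difference called 1103 genes higher and 892 lower in place of 967 and 1096.

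Got1, cytosolic aspartate aminotransferase, was 8213 and 7263 in fasted control mice and 1435 to 2716 in fed ones. The mice labelled MED13-LKO were at 2198 and 2610 fasted and 1512 to 1964 fed. It fell by 1.88 in control mice on the log2 scale, and the fasted mice labelled MED13-LKO were already within the range of the fed control mice. The interaction of 1.36 (standard error 0.23, 95% interval 0.84 to 1.88) was not called (adjusted p = 0.131 from limma). Asns, asparagine synthetase and a target of the amino acid response factor ATF4, was 397 and 161 in fasted control mice and 9.94 to 31.1 in the 6 mice labelled MED13-LKO. Fed control mice lay between 21.2 and 173, and the interaction was 2.65 (95% interval 0.73 to 4.58, adjusted p = 0.359 from limma). Bckdhb, a subunit of the branched-chain keto acid dehydrogenase, had an interaction of 1.43 with an interval of -2.80 to 5.66, and its 2 fasted mice labelled MED13-LKO were at 95 and 4.64.

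Further members of the list are given here although they were picked after their values had been seen. Slc25a15, the mitochondrial ornithine carrier, was 6054 and 6626 in fasted control mice, 4204 and 4098 after sucrose and 4894 and 5205 after fructose. Under the MED13-LKO label the values were 3358 and 3191, 3515 and 3464, and 3690 and 3886. It fell in control mice to 0.726 of the fasted level (adjusted p = 0.0021 from limma), was 1.11 times that level in fed mice labelled MED13-LKO (adjusted p = 0.17 from limma), and its interaction of 0.62 (standard error 0.09) had an adjusted p of 0.0861 from limma. Tat, tyrosine aminotransferase, was 97464 and 123400 in fasted control mice and 66664 and 62038 in fasted mice labelled MED13-LKO, and fed mice overlapped from 17264 to 30809. Arg1, arginase of the urea cycle, was 40570 and 40009 against 25051 and 24370 fasted, and 22096 to 23000 against 16504 to 20578 fed. Their interactions were 0.92 and 0.42, neither called. Cps1, which begins the urea cycle, was lower in mice labelled MED13-LKO by 0.74 fasted and by 0.66 fed on the log2 scale, and its interaction was 0.08. Glul, glutamine synthetase, was the only member of the list that was negative at an unadjusted p under 0.05. It was 11693 and 12397 in fasted and 14032 to 16158 in fed control mice, against 11401 and 9555 fasted and 8662 to 10832 fed in mice labelled MED13-LKO, an interaction of -0.41.

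**Figure D3:**
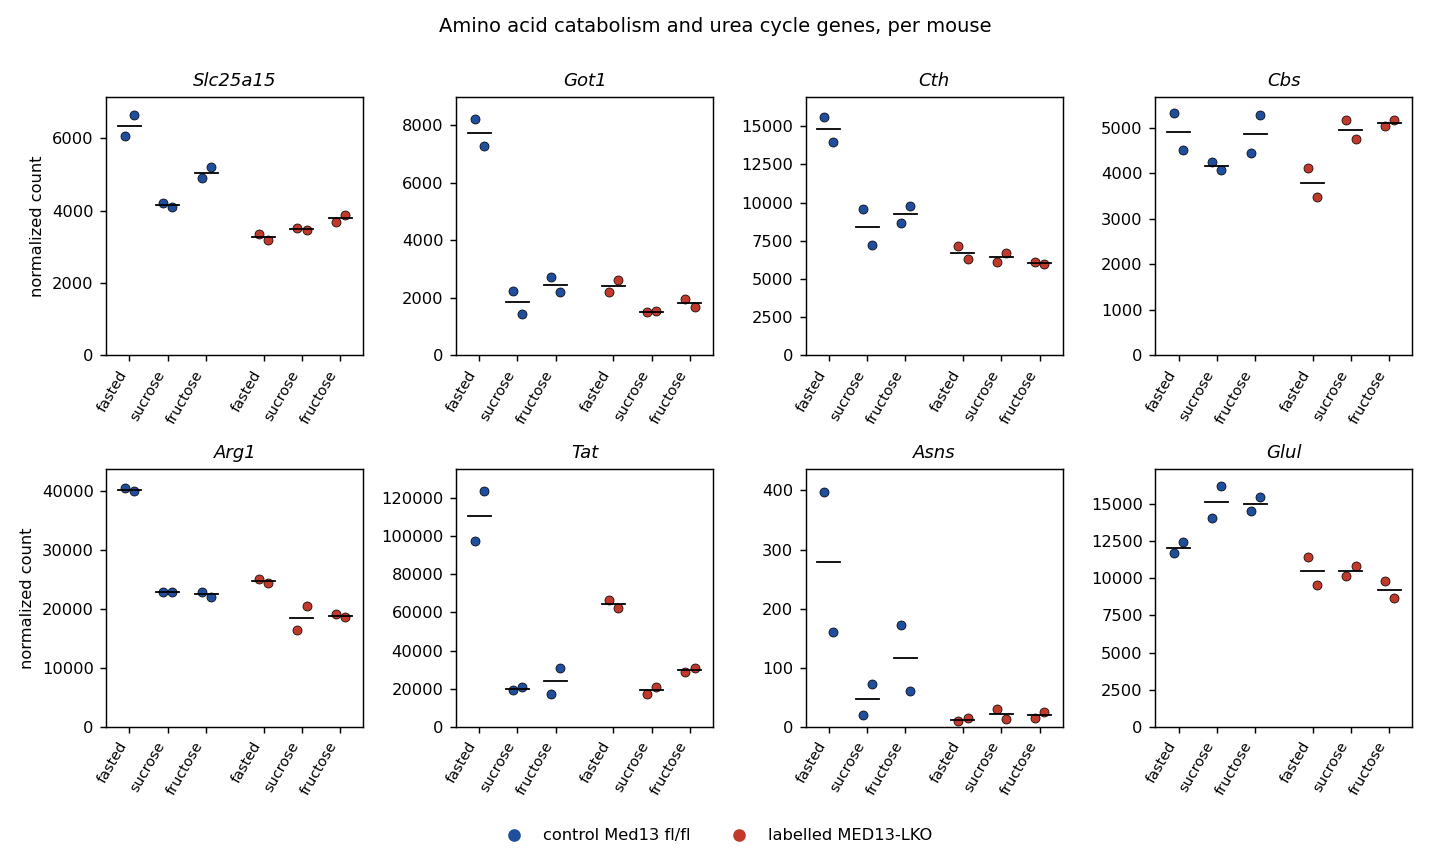
Normalized counts (vertical axes, from 0) of the 8 amino acid catabolism and urea cycle genes with the smallest interaction p-values after Oat, by diet, in control mice (blue) and mice labelled MED13-LKO (red); points are mice and bars are means of 2. Fasted control mice were highest for Got1 (8213 and 7263), Slc25a15, Cth, Arg1, Tat and, in 1 mouse, Asns, while Glul ran the other way.

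Promoters are printed for 4 genes: for Oat as the called gene of this list, and for Got1, G6pc and Fgf21 because each is a member of a described list with an interaction above 1 or below -1 and a motif match. They were read from the RefSeq table of GRCm38.p6, 250 bases before to 50 after the start, and 2 of the 5 called genes have an entry there. The motifs, chosen after the values were seen and searched on both strands, were CACGTG (E-box core of carbohydrate response elements, found in 7.15% of 32851 promoters of this length), GTAAACA (FOXO, 3.65%) and TGATGNAA (ATF4 composite element, 3.97%). Capitals mark the matches, which are descriptions and not binding sites.
Oat (chr7:132576349-132576648, minus strand): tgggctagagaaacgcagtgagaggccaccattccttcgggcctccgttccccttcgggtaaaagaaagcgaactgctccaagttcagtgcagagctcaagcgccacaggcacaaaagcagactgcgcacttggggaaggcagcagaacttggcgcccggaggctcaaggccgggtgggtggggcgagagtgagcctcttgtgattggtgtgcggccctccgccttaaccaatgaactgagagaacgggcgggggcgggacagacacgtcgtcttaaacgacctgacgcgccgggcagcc
Got1 (chr19:43524556-43524855, minus strand): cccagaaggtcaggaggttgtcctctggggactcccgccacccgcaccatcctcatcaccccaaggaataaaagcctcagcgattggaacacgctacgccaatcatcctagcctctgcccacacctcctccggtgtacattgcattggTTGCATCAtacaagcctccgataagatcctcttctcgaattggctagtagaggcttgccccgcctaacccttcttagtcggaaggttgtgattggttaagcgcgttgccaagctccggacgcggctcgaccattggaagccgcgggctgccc
G6pc (chr11:101367466-101367765, plus strand): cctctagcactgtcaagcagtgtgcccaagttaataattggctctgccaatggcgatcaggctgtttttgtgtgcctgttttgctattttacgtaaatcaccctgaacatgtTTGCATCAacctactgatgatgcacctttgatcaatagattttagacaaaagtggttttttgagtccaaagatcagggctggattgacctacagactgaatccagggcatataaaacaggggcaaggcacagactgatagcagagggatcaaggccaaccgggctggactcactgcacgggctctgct
Fgf21 (chr7:45615441-45615740, minus strand): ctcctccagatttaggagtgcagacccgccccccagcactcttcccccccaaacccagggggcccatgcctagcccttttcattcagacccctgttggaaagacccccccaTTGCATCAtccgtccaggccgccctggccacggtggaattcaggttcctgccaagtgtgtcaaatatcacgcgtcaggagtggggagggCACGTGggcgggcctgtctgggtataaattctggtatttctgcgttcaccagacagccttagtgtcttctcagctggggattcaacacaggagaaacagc
Got1 and G6pc each held 1 TGATGNAA match and Fgf21 held 1 TGATGNAA and 1 CACGTG match, while none of the 3 letter strings occurred in the Oat window. Got1 and G6pc had positive interactions and Fgf21 a negative one. These 3 genes were picked by both interaction and match, so a relation of motif to direction was not tested. Other list members with interactions of that size, such as Asns (2.65) and Acacb (-1.72), are not shown.

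Genes of PPAR alpha and fatty acid oxidation leaned the other way. Of 33 tested, 30 were below 0, with a median of -0.22, and 7 were negative and 0 positive at an unadjusted p under 0.05, beside 5.23% and 4.25% of all genes. None passed adjustment. In the fasted state 12 of the 33 were higher in mice labelled MED13-LKO and 0 lower, beside 4.12% of all genes higher, and in the fed state 5 were higher and 1 lower, beside 7.82% and 8.86%. Without a mouse the median ran from -0.34 to -0.13, the 7 became 10 without control sucrose replicate 1 and 11 without control fructose replicate 1, and the number of members below 0 fell to 23 without control fasted replicate 1. The 12 higher in the fasted state became 4 and 8 without control fasted replicates 1 and 2, and 5 without either fasted mouse labelled MED13-LKO. The list of triglyceride and lipid droplet genes, which shares members with it, had a median of -0.19 over 25 genes, with 7 negative and 0 positive at an unadjusted p under 0.05. That median was -0.06 and -0.34 without control fasted replicates 1 and 2, -0.08 without MED13-LKO fasted replicate 1 and -0.05 without MED13-LKO fructose replicate 2. Mgll, Plin5, Plin2 and Cidec were among the negative genes of both lists, so the counts of the lists are not independent. Mttp, Abhd5 and Lipe were the others in the droplet list.

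Plin5, a lipid droplet coat protein that ties droplets to mitochondria, was 845 and 1159 in fasted control mice and 662 to 847 in fed ones. In mice labelled MED13-LKO it was 2302 and 2071 fasted and 752 to 972 fed. The 2 fasted mice labelled MED13-LKO thus stood above all others, and the interaction was -0.94 (standard error 0.17, adjusted p = 0.15 from limma). Of 21 alternatives it was called in 1, without control fasted replicate 2 (adjusted p = 0.0472 from limma). Plin2, the main droplet coat protein of liver, was 2367 and 2726 fasted and 2828 to 4311 fed in control mice, against 3985 and 4249 fasted and 2790 to 3929 fed, an interaction of -0.74. Cidec, which enlarges droplets, was 55.9 and 86.4 in fasted control mice and 122 and 149 in fasted mice labelled MED13-LKO. Fed mice lay between 71.3 and 119 in control and 76.3 and 88.5 in mice labelled MED13-LKO, and the interaction was -1.02 (adjusted p = 0.33 from limma).

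Fgf21, a hormone induced by PPAR alpha in fasting and by ChREBP after sugar, was 1.13 and 4.82 in fasted control mice and 16.6 to 73.5 in fed ones. Mice labelled MED13-LKO had 50.7 and 34.4 fasted and 30.3 to 90.2 fed. The fasted control mice were the only group near 0. Fgf21 rose by 3.14 in control mice and differed by 0.07 in mice labelled MED13-LKO, and the interaction of -3.07 (standard error 0.82, 95% interval -4.91 to -1.24) was not called (adjusted p = 0.281 from limma). The value depends on the pseudocount at such low levels, and it was -1.60 with a pseudocount of 10. Acot1, a cytosolic acyl-CoA thioesterase, was 282 and 375 in fasted control mice and 1857 and 2477 in fasted mice labelled MED13-LKO, and fell to 804 to 1167 in fed ones, while fed control mice lay between 155 and 405. Acot1 and Acot3 share 22.8% and 25.2% of their subsequences with other genes, and their interactions of -0.98 and -1.06 were not called. Mgll, monoacylglycerol lipase, was picked after its value had been seen: 2068 and 2035 fasted and 3381 to 4285 fed in control mice, and 3640 and 3316 fasted and 3244 to 4755 fed in mice labelled MED13-LKO, an interaction of -0.72 (adjusted p = 0.131 from limma). Cpt1a, which admits fatty acids to mitochondria, was also picked after its value had been seen and had an interaction of -0.12.

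**Figure D4:**
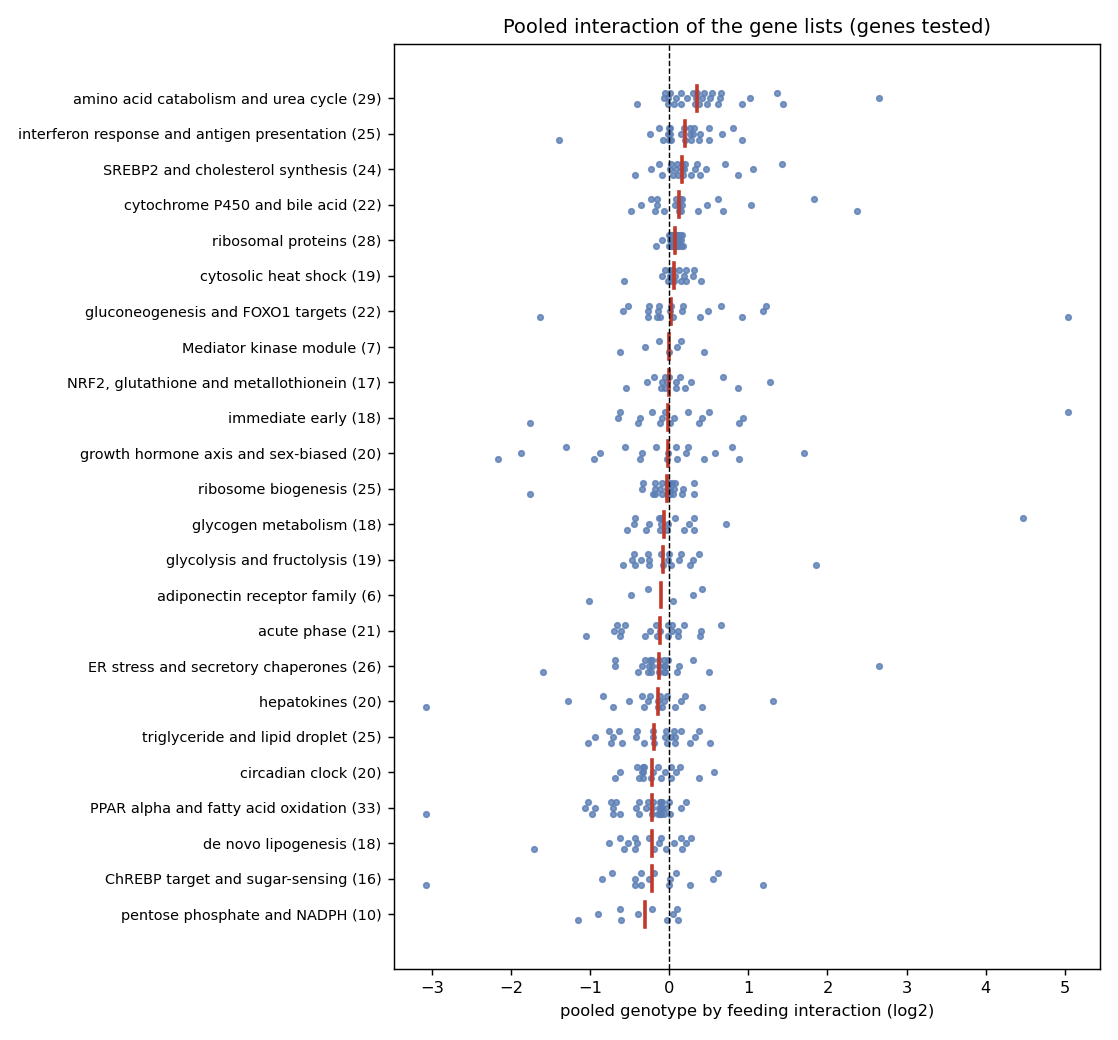
Pooled interaction (log2, horizontal axis) of the members of 24 gene lists, with the number tested in brackets; dots are genes, red bars list medians, and the dashed line the median of all genes. The amino acid list has the highest median (0.35) and the pentose phosphate list the lowest (-0.31).

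Fat synthesis responded in both genotypes, and no member of its list was called for the interaction. Of 18 genes of de novo lipogenesis, 10 rose in control mice and 8 in mice labelled MED13-LKO, beside 5.64% and 3.95% of all genes, and the median interaction was -0.22. It was -0.50 with sucrose and 0.08 with fructose, and 6 of the 18 were higher and 0 lower for the sugar difference at an unadjusted p under 0.05, beside 3.61% and 3.3% of all genes. The 6 became 2 without control sucrose replicate 1 or MED13-LKO sucrose replicate 1 and 3 without control fructose replicate 2. In the fed state 9 were lower and 0 higher in mice labelled MED13-LKO, beside 8.86% and 7.82% of all genes, and 5 without control sucrose replicate 1, MED13-LKO sucrose replicate 1 or MED13-LKO fructose replicate 1. The pooled median ran from -0.38 to -0.07, the latter without MED13-LKO fasted replicate 1. Fasn, fatty acid synthase, was 1290 and 1085 fasted and 8111 to 35838 fed in control mice, and 1050 and 699 fasted and 5983 to 12721 fed in mice labelled MED13-LKO. It rose by 3.70 and 3.27 on the log2 scale, and the interaction of -0.44 had an interval from -1.44 to 0.57, made of -1.13 with sucrose and 0.26 with fructose. Srebf1, which encodes SREBP1, rose by 1.62 and 1.83, an interaction of 0.21. Acacb, the acetyl-CoA carboxylase of the mitochondrial surface, differed most within this list. It was 462 and 310 fasted and 750 to 2658 fed in control mice, and 1265 and 1164 fasted and 1012 to 1574 fed in mice labelled MED13-LKO. Control mice separated by feeding and the others did not, and the interaction was -1.72 (standard error 0.44, adjusted p = 0.265 from limma).

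In the list of ChREBP targets and sugar sensing the median was -0.22 over 16 genes, with 4 negative and 1 positive at an unadjusted p under 0.05, beside 5.23% and 4.25% of all genes. The median ran from -0.34 without control fructose replicate 1 to 0.01 without MED13-LKO fasted replicate 1, where 1 gene was negative, and it was -0.14 with a pseudocount of 10. Mlxipl, which encodes ChREBP, was 3301 and 4043 fasted and 4668 to 5968 fed in control mice, against 3464 and 3799 fasted and 3504 to 4789 fed, an interaction of -0.44 (adjusted p = 0.423 from limma). Values per gene do not separate its alpha and beta forms. The paper measured these forms apart and reports only the beta form as induced by feeding. The pentose phosphate and NADPH list had a median of -0.31 over 10 genes, made of -0.66 with sucrose and -0.05 with fructose, and 3 of them were negative at an unadjusted p under 0.05, beside 5.23% of all genes. The pooled median was -0.15 and -0.52 without control sucrose replicates 1 and 2. G6pdx, glucose-6-phosphate dehydrogenase, which opens that pathway and shares 23.6% of its subsequences, was 80.6 and 95.9 in fasted and 126 to 169 in fed control mice. The mice labelled MED13-LKO were at 126 and 156 fasted and 125 to 139 fed. The feeding response was 0.80 and -0.10, and the interaction of -0.90 was not called (adjusted p = 0.265 from limma).

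Gluconeogenic genes and FOXO1 targets fell in both genotypes, 12 of 22 in control mice and 13 in mice labelled MED13-LKO, beside 4.99% and 5.42% of all genes. The 12 became 7 without control fasted replicate 2, and the 13 became 8 and 7 without MED13-LKO fasted replicates 1 and 2. Their median interaction was 0.02, with 4 positive and 1 negative at an unadjusted p under 0.05, beside 4.25% and 5.23% of all genes. It ran from -0.18 without control fructose replicate 1, where 4 genes were negative, to 0.19 without control fructose replicate 2. G6pc, the catalytic subunit of glucose-6-phosphatase and the gene that the study turned on, was 7865 and 10424 fasted in control mice, then 3077 and 3178 after sucrose and 3665 and 7030 after fructose. Under the MED13-LKO label the values were 5887 and 9423 fasted, 5895 and 6498 after sucrose and 8529 and 9317 after fructose. G6pc fell to 0.463 of the fasted level in control mice (adjusted p = 0.016 from limma), and was 0.988 of it in mice labelled MED13-LKO. The fed mice labelled MED13-LKO all lay within the range of the 2 fasted ones. The interaction of 1.18 (standard error 0.35, 95% interval 0.40 to 1.96) was not called (adjusted p = 0.325 from limma), and it was called under none of the 21 alternatives, where the smallest adjusted p was 0.0846. Sucrose gave 1.27 and fructose 1.09. By quantitative PCR the paper reports G6pc as still elevated in fructose-fed control livers and suppressed in MED13-LKO livers. In the counts here the fructose-fed mice labelled MED13-LKO instead stood above the fructose-fed control mice. The reason for that difference was not tested.

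Pck1, which makes phosphoenolpyruvate, had an interaction of 0.38 with an interval from -1.56 to 2.32, and its fructose-fed control mice were at 7416 and 48079. Irs2, an insulin receptor substrate that insulin lowers through FOXO1, was 703 and 942 fasted and 92.9 to 170 fed in control mice, against 263 and 490 fasted and 92.2 to 166 fed in mice labelled MED13-LKO. It fell in both genotypes, and the interaction was 1.22 (adjusted p = 0.31 from limma). Foxo1 fell by 1.22 and 1.49 on the log2 scale, an interaction of -0.27. Ppp1r3g, which directs a phosphatase to glycogen, was 214 and 280 in fasted control mice, 6.18 and 18.5 in fasted mice labelled MED13-LKO, and at most 7.49 in the 8 fed mice. Its interaction was 4.48 on the scale with a pseudocount of 1 (adjusted p = 0.326 from limma), and with a pseudocount of 10 it was 3.66 and called (adjusted p = 0.0224 from limma).

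The difference between the sugar interactions was tested on its own, since pooling hides it. It equals the genotype difference with fructose minus that with sucrose, and no fasted mouse enters the contrast. By limma 13 genes were called (0.105%), 3 higher and 10 lower with fructose. The count became 36 without control fructose replicate 2, 8 without control fasted replicate 1, 6 without control sucrose replicate 1, and 2 and 4 without MED13-LKO sucrose replicates 1 and 2. Without adjustment 447 were higher (3.61%) and 408 lower (3.3%), and 416 and 435 with libraries rescaled to equal 75th percentiles. Acsl3, which activates fatty acids on the endoplasmic reticulum and lipid droplets, was 1948 and 1715 in sucrose-fed and 1069 and 1080 in fructose-fed control mice. In mice labelled MED13-LKO it was 580 and 712 after sucrose and 899 and 975 after fructose, so the order of the sugars was opposite in the genotypes. The interaction was -0.93 with sucrose and 0.38 with fructose, a difference of 1.31 (standard error 0.16, 95% interval 0.96 to 1.65, adjusted p = 0.0151 from limma), while the pooled value was -0.28. The Acsl3 call was lost without control sucrose replicate 1, MED13-LKO sucrose replicate 1 or MED13-LKO fructose replicate 2 (adjusted p from 0.0568 to 0.0637 from limma).

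Cholesterol synthesis genes had higher interactions with fructose than with sucrose, and none was called for that difference by limma. Of 24 genes, 16 were higher and 0 lower at an unadjusted p under 0.05, beside 3.61% and 3.3% of all genes, and the median was -0.16 with sucrose and 0.68 with fructose. The 16 became 10 without MED13-LKO sucrose replicate 1. Hmgcs1, which makes hydroxymethylglutaryl-CoA, came closest. It was 4652 and 4629 after sucrose and 2755 and 2567 after fructose in control mice, and 2249 and 2760 against 3642 and 2924 in mice labelled MED13-LKO. Its sugar difference was 1.19 (adjusted p = 0.0523 from limma), and its pooled interaction 0.17. Hmgcs1 was picked after its values had been seen. Msmo1, a sterol demethylation enzyme, had a pooled interaction of 1.06 (adjusted p = 0.359 from limma) made of 0.47 and 1.65, and Fdft1, squalene synthase, with 31.9% of its subsequences shared, one of 1.42 made of 0.76 and 2.09. The pooled median of the list was 0.17, and it ran from 0.01 without MED13-LKO fasted replicate 2 to 0.31 without control fructose replicate 1.

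A pair of STAT5 targets that act as feedback inhibitors of growth hormone signalling had unlike values for the sugars, and neither was called. Cish was 103 and 129 fasted, 980 and 670 after sucrose and 910 and 584 after fructose in control mice. Mice labelled MED13-LKO had 132 and 139 fasted, 612 and 676 after sucrose and 129 and 66.1 after fructose. The fructose-fed mice labelled MED13-LKO were thus below the fasted mice of that label, narrowly so at 129, and the sucrose-fed ones above them. The interaction was -0.56 with sucrose and -3.19 with fructose, the sugar difference -2.64 (adjusted p = 0.0867 from limma) and the pooled value -1.88 (adjusted p = 0.182 from limma). Socs2 had a pooled interaction of -2.17 (adjusted p = 0.33 from limma). Over the 20 genes of the growth hormone list the median was -0.02, and -0.27 to 0.16 with a mouse left out.

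**Figure D5:**
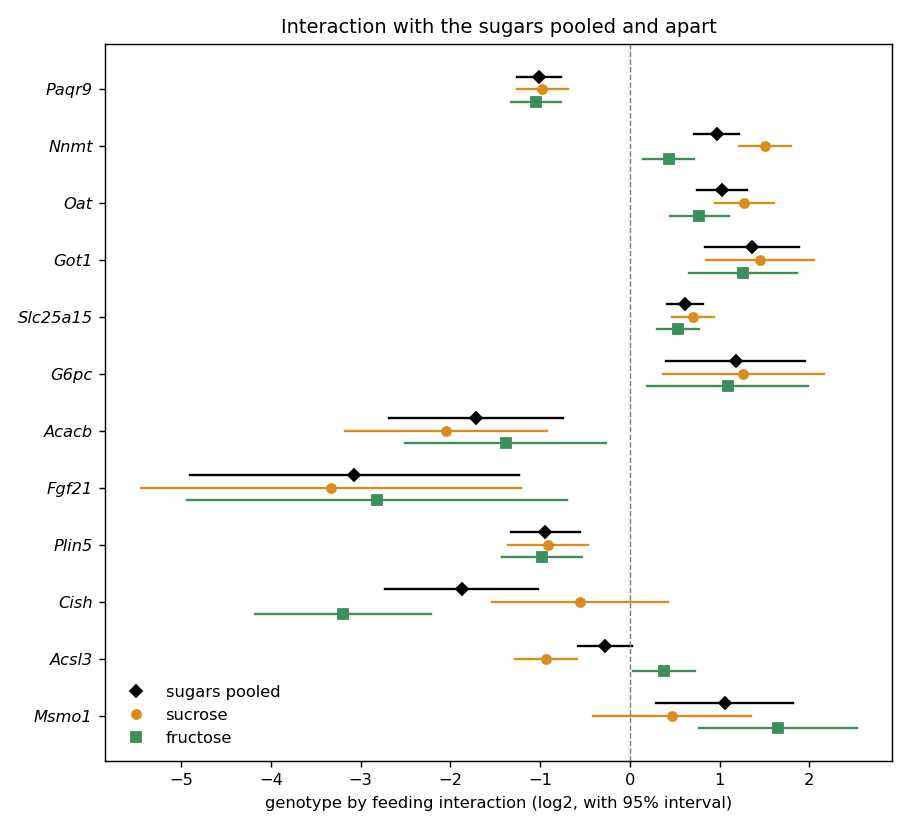
Interaction (log2, horizontal axis) with 95% intervals for 12 genes, with the sugars pooled (black), with sucrose (orange) and with fructose (green). Paqr9, Got1 and Plin5 have like values for both sugars, Acsl3 runs from -0.93 with sucrose to 0.38 with fructose, and Cish from -0.56 to -3.19.

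Most of the other genes called for the sugar difference were low and shared a pattern. Ighv1-50, Ighg1, Igkv11-106, Gm13456, Gm9457, Gm4883, Gm21399 and Rps12-ps24 were at 7.02 or less in both sucrose-fed control mice and, in both sucrose-fed mice labelled MED13-LKO, above every other library. Ighg1, an immunoglobulin constant region, was 4.02 and 0 against 136 and 173, and the other 8 libraries lay between 19.7 and 46.1. Between 1.72% (Ighg1) and 73.2% (Gm13456) of the subsequences of these 8 genes occur elsewhere. The 8 lymphocyte markers summed to 238 to 321 in fed control and 280 to 412 in fed mice labelled MED13-LKO, and to 257 to 311 and 333 to 349 when fasted. None of these markers was at 0 in all libraries, and their part in the result was not tested. The fed sums pool sucrose-fed and fructose-fed mice, so they cannot show whether these markers follow a pattern of the sucrose-fed mice. Fam177a, with 98.5% of its subsequences shared, was 0 in both fructose-fed control mice and 53.3 to 119 in the other 10. Rprd2 was 0 in both mice of the fasted control, fructose-fed control and sucrose-fed MED13-LKO groups. Of the 13 calls, those of Ighv1-50 and Fam177a remained with any mouse left out, and the others were lost in at least 2 of the 12 such fits. Nlrp12, an innate immune regulator, was 44 to 186 in control mice and at most 2.06 in mice labelled MED13-LKO except 42.3 and 35.5 with sucrose.

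None of the tested marker genes of cells that a liver sample holds was called for the pooled interaction by limma. In bulk tissue, fewer cells of a type and less RNA per cell cannot be told apart. Of 7 hepatocyte markers the median interaction was 0.07, and they summed to 2471860 or more in control and 2221340 or less in mice labelled MED13-LKO. None of 11 Kupffer cell and macrophage markers passed an unadjusted p of 0.05 in either direction, and their median was -0.08. Of 8 sinusoidal endothelial markers 1 was negative, with a median of -0.25. Of 9 stellate and fibroblast markers 3 were positive, beside 4.25% of all genes, with a median of 0.24 that ran from -0.02 without MED13-LKO sucrose replicate 2 to 0.39 without replicate 1. Red blood cell transcripts summed to 11848 and 14914 in fasted and 8910 to 12286 in fed control mice, and to 10100 and 11176 in fasted and 5734 to 9676 in fed mice labelled MED13-LKO. Their part in the interaction was not tested. Of 7 markers of pancreas and fat near the liver, 3 were listed and 0 were high enough to test. These summed to 0 in the fasted mice of both genotypes. In fed mice they summed to between 0 and 102 in control and 1.59 and 5.81 under the MED13-LKO label.

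The remaining lists are given by their counts at an unadjusted p under 0.05, beside 4.25% of all genes positive and 5.23% negative. Glycolysis and fructolysis had 2 positive and 0 negative of 19 (median -0.08), and glycogen metabolism 3 and 1 of 18 (-0.07). NRF2, glutathione and metallothionein had 3 and 0 of 17 (-0.01), and cytochrome P450 and bile acid 3 and 1 of 22 (0.13). Immediate early genes had 1 and 1 of 18 (-0.02). Ribosome biogenesis (25 genes, -0.02) and cytosolic heat shock (19 genes, 0.06) had 0 in either direction. Ribosomal protein genes had a median of 0.07 over 28 members, with 0 in either direction. Acute phase genes had a median of -0.11, with 5 negative and 1 positive of 21, and the 5 became 2 or 3 without any one fasted mouse or MED13-LKO fructose replicate 1, while the median was 0.05 without control fructose replicate 1. Interferon response and antigen presentation had 0.20, with 2 positive and 0 negative of 25. Circadian clock genes had -0.21, with 2 negative and 0 positive of 20. Endoplasmic reticulum stress and secretory chaperone genes had -0.13 pooled (-0.36 to 0.03 with a mouse left out), made of -0.54 with sucrose and 0.16 with fructose, and 8 of 26 were higher and 2 lower for the sugar difference, beside 3.61% and 3.3% of all genes. The 8 became 16 without MED13-LKO fructose replicate 1, and 3 without control sucrose replicate 1, control fructose replicate 2, MED13-LKO sucrose replicate 2 or MED13-LKO fructose replicate 2.

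Near the threshold, the next genes by p-value after the 5 calls included Ethe1, a mitochondrial sulfur dioxygenase that works on the sulfide left by cysteine breakdown. It was named after its values had been seen. Ethe1 was 655 in both fasted control mice and 469 to 544 in fed ones, and 315 and 307 fasted and 405 to 434 fed in mice labelled MED13-LKO. It fell in control mice to 0.765 and rose in mice labelled MED13-LKO to 1.36 times the fasted level, the same opposite directions as Oat, and its interaction of 0.83 (standard error 0.12) had an adjusted p of 0.0861 from limma. Both sugars gave 0.83.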

How the data were processed

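Liver RNA from 12 mice was sequenced as paired reads, 2 mice in each of 6 groups taken from the sample titles. The signal values are normalized counts deposited by the authors, per gene, made with Trim Galore 0.6.5, kallisto 0.46.0 and DESeq2 1.24.0 against mm10 per the labels. Whole reads could not be recovered from these signal values, so no count test was run, and the depth behind each value is unknown. Of 16346 identifiers, 16212 were matched to a symbol of GENCODE M21 (GRCm38), which also gave positions and the 31-base subsequences shared between genes.

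For genes with a mean of at least 10, log2(normalized count + 1) computed here was fitted by 1 linear model of 6 group means (limma 3.58.1, R 4.3.3), and variances were moderated along a trend with the mean. Contrasts gave the pooled interaction, that of each sugar, their difference, the feeding response in each genotype and the genotype difference in each state. P-values were two-sided and adjusted by Benjamini-Hochberg over all 12366 genes, with calls under 0.05. Log2 changes understate those of low genes. The fit was tested on simulated data. Figures used Python 3.11.15 and matplotlib 3.10.9.

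The members and gene lists were chosen with earlier results of these data known. Named genes were drawn from all called genes, the genes the paper names and the kinase module. Added to these were the 4 list members with the largest interaction and the leading genes of the sugar difference. Not every such gene is described. Mlx, Nr1h3, Usf1, Gbe1, Phkb, Gys2 and Ppib had interactions from -0.23 to 0.32, Cdk19 0.10 and Med12l -0.31, none called. Nr4a1 (5.05, and 2.06 with a pseudocount of 10) and Onecut1 (-1.64), largest among the gluconeogenic genes, were not called. Genes outside the rule are said to be picked afterwards. Alternatives were pseudocounts of 0.1 and 10, no filter and a mean of at least 50, a block for the replicate number, libraries at equal 75th percentiles, 4 groups, no mean trend, robust moderation and each mouse left out. No plain-water meal, protein, chromatin or glycogen data were analysed here.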

Additional observations from a re-analysis of the deposited data

Results flagged for a closer look

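For 5 genes the feeding effect differed between the genotypes in the test of the interaction itself by limma with Benjamini-Hochberg adjustment. The log2 interactions were -1.01 for Paqr9, 0.97 for Nnmt, 1.03 for Oat, 3.37 for Ighv1-50 and 5.57 for Nudt16l1, with adjusted p-values from 0.0371 to 0.0492. With each mouse left out in turn, the call was lost in 7 of 12 fits for Paqr9, 9 for Nnmt, Oat and Ighv1-50, and 11 for Nudt16l1. Paqr9 was lower in every fed mouse labelled MED13-LKO than in every fed control mouse and higher in both fasted ones, and Oat was lower in both states.

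For 13 genes the interaction differed between the sugars by the test of that difference, fructose minus sucrose. It was higher with fructose for Rprd2 (11.71), Fam177a (6.30) and Acsl3 (1.31). It was lower for Ighv1-50 (-7.38), Ighg1 (-6.60), Gm9457 (-5.93), Igkv11-106 (-5.82) and Nlrp12 (-5.55). The same held for Gm4883 (-5.47), Rps12-ps24 (-5.46), Gm21399 (-5.44), Gm13456 (-4.26) and Nnmt (-1.07). Adjusted p-values from limma ran from 0.00044 to 0.0485. With each mouse left out in turn, the call was lost in 0 of 12 fits for Ighv1-50 and Fam177a, 2 for Rprd2, 3 for Acsl3, Nlrp12 and Gm13456, 5 for Gm9457 and 6 for Nnmt. It was lost in 10 for Ighg1, 11 for Igkv11-106, Rps12-ps24 and Gm21399, and 12 for Gm4883. Of these genes, Acsl3 and Nnmt were above 500 in every library, and each of the other 11 was at 10 or less in at least 2 libraries.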

How the results depend on the processing

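In none of the comparisons did a called gene change sign under an alternative that tested it. The pooled count of 5 became 3 with a mean of at least 50, 3 without the mean trend and 0 (1060 genes at an unadjusted p under 0.05, limma) with the sugars as 1 fed group. The sugar difference of 13 and the sucrose count of 18 each became 5 with a mean of at least 50. The fructose count of 3 became 0 with a pseudocount of 10 and 7 without a filter. The fasted genotype count of 1110 became 711 without the mean trend. With a mouse left out, counts ran from 0 to 17 (pooled), 2 to 36 (sugar difference), 2 to 28 (sucrose), 0 to 47 (fructose), 308 to 1653 and 278 to 1442 (feeding in control and in mice labelled MED13-LKO), 382 to 1454 and 1278 to 2190 (genotype fasted and fed). Where this left a group with 1 mouse, it was assumed to vary like the others. Of 21 alternatives Paqr9 was called in 12, Nnmt and Oat in 10 and Ighv1-50 in 8, and Nudt16l1 in 6 of 20. With 2 mice per group, a gene with a mean from 10 to 100 had a median standard error of 0.495.

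With the replicate block, 3 genes were called for the pooled interaction, 8 for the sugar difference, 7 with sucrose and 1 with fructose. The deviations of equal-numbered mice correlated from -0.14 to 0.08 over the 15 pairs of groups. These numbers are those of the sample titles, and for fed mice they differ from the numbers in the authors' column names. Whether mice were handled in pairs was not tested.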

Other observations

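Several genes outside the described lists came near the threshold with the sugars pooled and were not called. Gprin3 was 546 and 548 in fasted and 893 to 1277 in fed control mice, and 774 to 920 in the 6 mice labelled MED13-LKO, an interaction of -0.91 (adjusted p = 0.106 from limma). Ddx17, an RNA helicase that acts in splicing, was 395 and 457 in fasted and 709 to 982 in fed control mice and 750 to 962 in mice labelled MED13-LKO, an interaction of -1.01 (adjusted p = 0.106 from limma). In both, the 2 fasted control mice stood below the other 10. Gucd1 was 2306 to 2807 in control mice and went from 2515 and 2661 fasted to 1796 to 1941 fed in mice labelled MED13-LKO, an interaction of -0.56 (adjusted p = 0.106 from limma). These 3 were named after their values had been seen.

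Secreted factors of the liver showed mixed directions over 20 genes, with a median of -0.14 and 2 positive and 3 negative at an unadjusted p under 0.05, beside 4.25% and 5.23% of all genes. Enho, which encodes adropin, was 121 to 343 in control mice and 6.5 to 26.9 in mice labelled MED13-LKO, without overlap in any state, and its interaction of 1.32 was not called (adjusted p = 0.378 from limma). Inhbe, which encodes an activin subunit, was at most 379 in fasted and 817 to 1058 in fed control mice, against 285 and 463 fasted and 487 to 724 fed in mice labelled MED13-LKO, an interaction of -0.83 (adjusted p = 0.379 from limma).

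Cytochrome P450 genes included Cyp2a4, which is more abundant in females and in livers with low growth hormone signalling. Other genes hold 58.9% of its 31-base stretches, so the placement of its reads is uncertain. It was 11.2 to 39.6 in control mice and 2256 to 6576 in mice labelled MED13-LKO, and its interaction of 1.83 was not called (adjusted p = 0.249 from limma). Cyp2b9, with 26.1% shared, was 485 and 576 in the sucrose-fed mice labelled MED13-LKO and at most 77.6 in the other 10 mice.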
